A study of Mus musculus with 11 samples.

Results

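The transcripts of 10 genes of lipoprotein biology were followed in mouse liver: the apolipoprotein genes Apoa1, Apoa4, Apoa5, Apob, Apoc1, Apoc2, Apoc3 and Apoe, the phospholipid transfer protein gene Pltp and the very low density lipoprotein receptor gene Vldlr. All probes that carried these symbols were taken, and all 10 genes were present, with 19 probes in all. A probe was kept when its detection p-value (the chance that an empty probe is as bright) was under 0.05 on at least 2 arrays, and 16 of the 19 probes passed. The 10 genes stood among 15469 tested genes, each represented by its probe with the highest mean. Of the 10, 0 passed a 5% false discovery rate in any of the 3 comparisons of a pair of groups.

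The study measured liver RNA of male C57BL/6J mice on 11 Illumina BeadChip arrays, with an age of 8 weeks given for every array. Every mouse carried an adenovirus for FXR (Nr1h4), the nuclear receptor for bile acids, and received the synthetic FXR agonist GW4064 overnight at 30 mg/kg in corn oil, a week after infection. In lean mice the virus gave FXR-WT on 2 arrays and FXR-K217Q on 3, a mutant with glutamine for a lysine that mimics its acetylated form. In obese mice it gave FXR-WT on 3 arrays and FXR-K217R on 3, a mutant whose arginine at that place takes no acetyl group. Sample titles carry the code HFD for every obese array and ND for every lean one, which the labels do not spell out, so obesity and what these codes stand for cannot be told apart. No group without virus or without agonist was analysed here, K217Q was given to lean mice and K217R to obese mice, and the mice kept their own Nr1h4. Nothing in the labels ties each replicate to an animal of its own, so p-values measure the spread between these samples, which may be technical.

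Apolipoproteins are the protein parts of lipoprotein particles, which carry triglyceride and cholesterol in blood. The liver secretes very low density lipoprotein around a single Apob molecule, and smaller apolipoproteins move between particles: Apoc2 activates lipoprotein lipase, Apoc3 slows clearance, and Apoe binds the receptors that take remnants up. FXR is known to lower plasma triglyceride, and Apoc2, Apoc3, Apoa1, Pltp and Vldlr are among the genes described as its targets in liver or liver cells.

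Between 18263 and 19500 of 45281 probes were detected per array, and the mean number of beads behind a probe was 41.9 to 44.0. For the 16 probes kept here the median standard error over beads was 2.11% to 6.80% of the intensity. Across genes, lean FXR-K217Q replicate 3 was nearer to an array of another group (lean FXR-WT replicate 2, r = 0.988) than to its own group (mean r = 0.981), as were the 3 obese FXR-K217R arrays, which matched an obese FXR-WT array at r = 0.991 to 0.992 and their own group at 0.989 to 0.990, and obese FXR-WT replicate 1 differed from its group in clock transcripts. A clock index, the log2 average of the Dbp, Nr1d1, Nr1d2 and Per3 transcripts less that of Clock and Arntl (genes chosen after their values were seen), was -0.92 and -0.85 on these arrays. It was -0.49 and -0.27 in lean FXR-WT, 1.07 to 1.55 on the other arrays of their own groups, and 1.52 to 2.03 in obese FXR-K217R. Several results that rest on these 2 arrays are given with and without them. Of 8 hepatocyte markers 7 were tested and 6 were detected on all arrays. Between obese and lean FXR-WT liver Tat fell by 1.82 (limma adjusted p = 0.0288), and the other 6 differed by -0.89 to 0.15 without passing. The Tat probe was detected on 1 of the 3 obese FXR-WT arrays and read 4.59 to 5.69 on them, close to background. With FXR-K217R all 7 markers were lower, by -0.55 to -0.01, and 0 passed.

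The promoters of 8 of the 10 genes are in the RefSeq table used here (GRCm38.p6). The 250 bases before the start site are printed for Apoa1, Apoa4 and Apoa5, which neighbour each other with Apoc3 and yet spread very differently over the arrays, and for Apoc2, whose groups separated in every comparison. Capitals mark matches, on either strand, to AGGTCA (a core element of nuclear receptor sites), CACGTG (the E-box of clock factors), TTATGTAA (the D-box of Dbp) and TATAAA (the TATA box).
Apoa1, chr9:46228380-46228629, plus strand: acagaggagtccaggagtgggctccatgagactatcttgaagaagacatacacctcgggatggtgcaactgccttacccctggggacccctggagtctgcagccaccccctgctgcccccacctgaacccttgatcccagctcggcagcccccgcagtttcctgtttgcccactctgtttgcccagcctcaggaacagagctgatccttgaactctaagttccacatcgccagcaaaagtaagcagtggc
Apoa4, chr9:46240594-46240843, plus strand: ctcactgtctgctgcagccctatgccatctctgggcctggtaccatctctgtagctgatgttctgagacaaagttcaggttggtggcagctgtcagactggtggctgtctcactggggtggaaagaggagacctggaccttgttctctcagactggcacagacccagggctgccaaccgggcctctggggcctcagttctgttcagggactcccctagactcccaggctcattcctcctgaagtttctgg
Apoa5, chr9:46268358-46268607, plus strand: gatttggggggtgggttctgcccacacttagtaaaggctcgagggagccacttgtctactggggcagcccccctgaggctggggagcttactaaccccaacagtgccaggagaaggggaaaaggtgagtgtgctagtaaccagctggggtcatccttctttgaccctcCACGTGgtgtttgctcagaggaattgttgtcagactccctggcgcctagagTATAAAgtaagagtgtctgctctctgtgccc
Apoc2, chr7:19677942-19678191, minus strand: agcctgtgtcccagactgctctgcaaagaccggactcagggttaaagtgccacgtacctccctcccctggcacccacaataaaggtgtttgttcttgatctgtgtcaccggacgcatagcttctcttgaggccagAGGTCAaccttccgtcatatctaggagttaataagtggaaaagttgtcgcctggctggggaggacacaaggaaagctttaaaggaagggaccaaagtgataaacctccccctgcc
The Apoc2 window holds 1 match to AGGTCA, which starts 115 bases before the start site, and 14% of the 32851 windows in the table hold one. The Apoa5 window holds 1 CACGTG at 82 bases (6.02% of windows) and 1 TATAAA at 31 bases (12.4%). The Apoa1 and Apoa4 windows hold 0 matches to these motifs, and TTATGTAA is in 0 of the 4 windows and in 0.819% of all.

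Obese and lean livers that carried FXR-WT were compared to see which of these transcripts differ with obesity when the receptor is the same. Apoa4 was the widest mover of the 10, 4.33-fold higher in obese liver, followed by Vldlr at 1.72-fold and Apoc2 at 1.70-fold. Apoa5 (0.38) and Apob (0.24) also lay higher and Pltp (-0.36) lower on the log2 scale, while Apoa1, Apoc1, Apoc3 and Apoe differed by 0.08 or less in size. Of the 10 genes, 0 passed 5% FDR in limma, against 1.2% of all genes (185 of 15469, with 0.685% higher and 0.511% lower), and 2 had an unadjusted p under 0.05, Apoa4 and Apoc2, where 13.5% of all genes did. The groups did not overlap for 5 of the 10, against 33% of all genes: Apoa4, Apob, Apoc2 and Vldlr lay higher on every obese array (16.7% of all genes) and Apoc3 lower (16.2%). The median difference of the 10 was 0.14 with 7 positive, and that of all genes was -7e-04 with 49.9% positive. In whole liver, fewer cells of a type cannot be told apart from less RNA per cell.

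**Figure D1:**
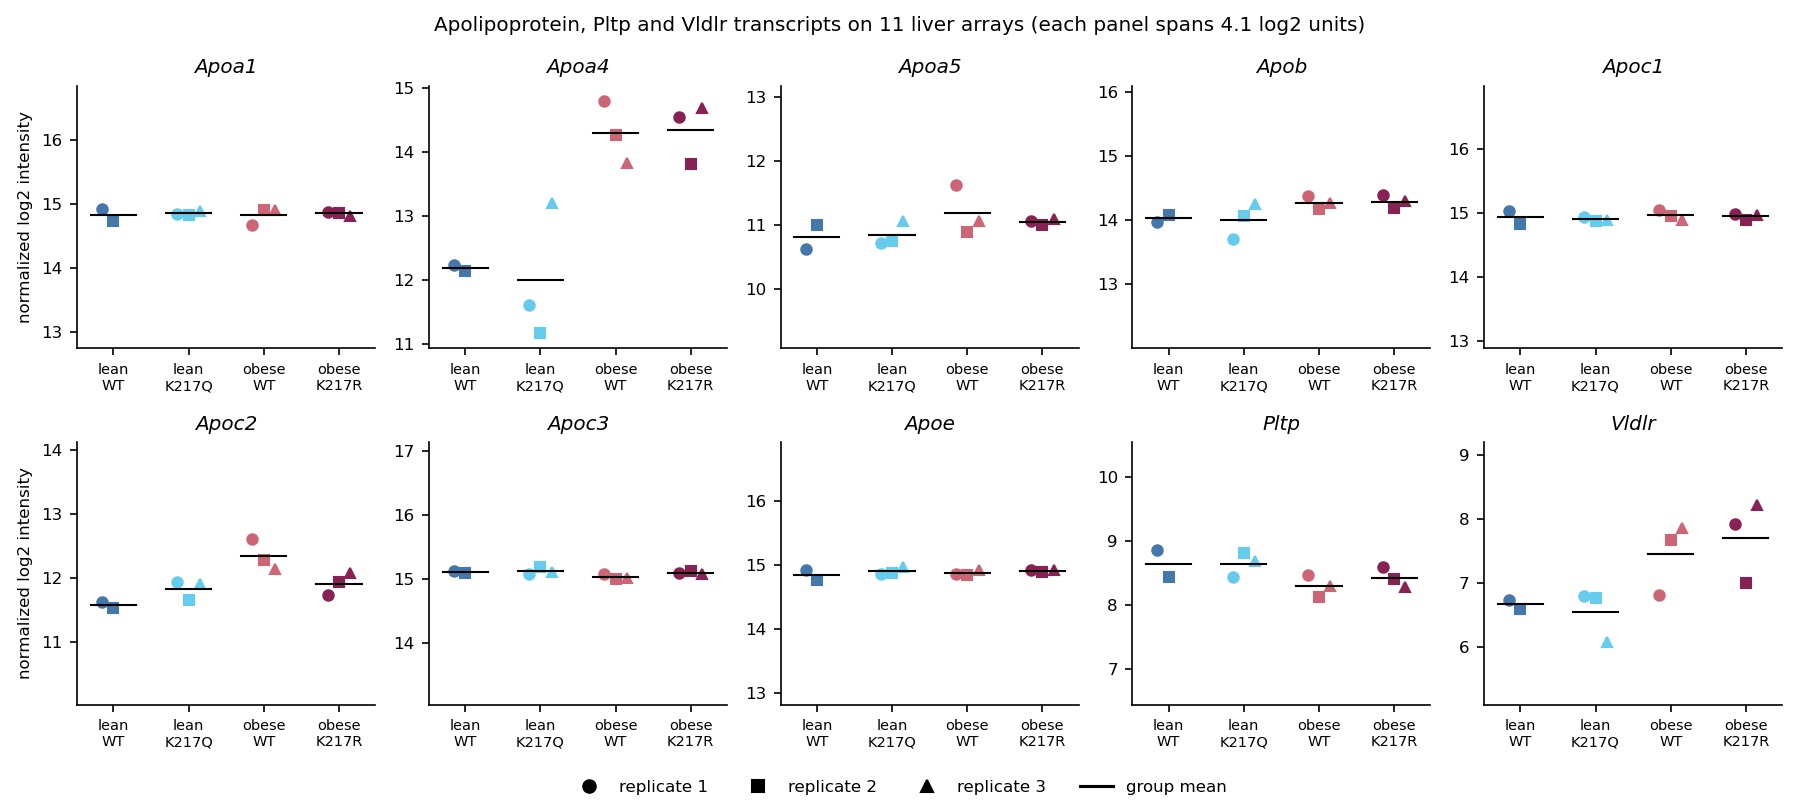
Normalized log2 intensity (y axis) of the 10 genes on the 11 arrays, by group (x axis); symbols give the replicate number, bars the group mean, and every panel spans the same number of log2 units. Apoa4 and Vldlr lie higher on every obese array than on every lean one, and Apoa1, Apoc1, Apoc3 and Apoe stay nearly level.

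Apoa4 encodes an apolipoprotein of intestinal chylomicrons and of liver particles, whose liver transcript is known to rise in steatosis in mice. It was 12.23 and 12.14 on the lean FXR-WT arrays and 14.80, 14.27 and 13.83 on the obese FXR-WT arrays. It was 11.61, 11.17 and 13.21 on the lean FXR-K217Q arrays and 14.54, 13.82 and 14.69 on the obese FXR-K217R arrays. All 6 obese arrays thus lay above all 5 lean arrays, and lean FXR-K217Q replicate 3 was the highest of the lean ones.

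Apoa4 averaged 14.30 ± 0.48 (SD, n = 3) with FXR-WT in obese liver and 12.19 ± 0.06 (SD, n = 2) in lean liver, a difference of 2.11 (SE 0.51, limma unadjusted p = 0.00188, adjusted p = 0.0859). Only 0.375% of the 15469 genes had a wider range over the arrays than Apoa4 (3.63 on the log2 scale, 12.4-fold). The other Apoa4 probes differed by 2.15 and 2.40 (adjusted p = 0.0968 and 0.0849 in limma on single probes), so all 3 probes differed in the same direction. Raw intensity of the main probe reached 14346 to 30778 on the obese arrays, and whether the scale is compressed at this brightness was not tested. The probe that gave 2.40 read 8068 to 21330 on the same arrays. The adjusted p passed 5% in 6 of 26 alternatives (range 0.0062 to 0.475). Of these alternatives 24 were counted as planned, and 4 of them passed. That count includes leaving out both arrays that stand apart, which were picked from their values in these data. These arrays also had the highest Apoa4 of their groups. The value of 0.0062 came from a comparison over both constructs, given below. Without lean FXR-K217Q replicate 3, whose spread enters the shared error, the difference between obese and lean FXR-WT liver had adjusted p = 0.0122 in limma. Without obese FXR-WT replicate 1 it was 1.86 (adjusted p = 0.155), and without both arrays that stand apart it was also 1.86 (adjusted p = 0.0169).

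The obese arrays were also set against the lean arrays over both constructs, a choice made after seeing the data. Apoa4 rose by 2.23 (SE 0.34, 4.70-fold, limma adjusted p = 0.0062, higher on 6 of 6 obese arrays than on 5 of 5 lean arrays). Vldlr lay 0.97 higher (SE 0.26, adjusted p = 0.0626) and Apoc2 0.43 higher (SE 0.11, adjusted p = 0.0626), and neither passed. In this comparison 4.14% of genes passed 5% FDR (2.53% higher), and the groups did not overlap for 4.48%. Apoa4 and Vldlr were 2 of the 10 genes that lay higher on every obese array, as 2.54% of all genes did. For Vldlr this did not hold on another of its detected probes, where obese FXR-WT replicate 1 (6.42) lay below lean FXR-K217Q replicate 1 (6.51). Obesity and the mutants cannot be told apart in the arrays it adds, since each mutant was used in only 1 kind of mouse.

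Vldlr encodes the receptor that takes up triglyceride-rich particles, low in normal liver and known to rise in fatty liver in mice. Its brightest probe read 6.74 and 6.60 in lean FXR-WT, 6.80, 6.77 and 6.09 in lean FXR-K217Q, 6.83, 7.68 and 7.86 in obese FXR-WT, and 7.92, 7.005 and 8.22 in obese FXR-K217R liver. The lowest obese array (6.83) was only just above the highest lean array (6.80). Obese FXR-WT exceeded lean FXR-WT by 0.78 (SE 0.39, 95% interval -0.07 to 1.63, limma adjusted p = 0.417), and the other probes past the filter gave 1.01 and 1.06 (adjusted p = 0.267 and 0.171). Without obese FXR-WT replicate 1 the difference was 1.10 (adjusted p = 0.199). The remaining 3 of its 6 probes were detected on 0 of 11 arrays.

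Apoc2, the cofactor of lipoprotein lipase, was 11.63 and 11.53 in lean FXR-WT, 11.93, 11.65 and 11.90 in lean FXR-K217Q, 12.61, 12.28 and 12.13 in obese FXR-WT, and 11.73, 11.93 and 12.07 in obese FXR-K217R liver. On this probe the obese FXR-WT arrays were the 3 highest of the 11 and the lean FXR-WT arrays the lowest. On the second probe lean FXR-K217Q replicate 1 (9.83) lay above obese FXR-WT replicates 2 and 3 (9.76 and 9.74). Obese FXR-WT exceeded lean FXR-WT by 0.77 (SE 0.17, limma unadjusted p = 0.00093, adjusted p = 0.0619), and the second probe by 0.65 (adjusted p = 0.198). The adjusted p passed 5% in 6 of 25 alternatives (range 0.021 to 0.458), and without both arrays that stand apart the difference was 0.63 (adjusted p = 0.077).

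Apoa5, which promotes triglyceride clearance, was 10.63 and 10.995 in lean FXR-WT and 11.62, 10.89 and 11.06 in obese FXR-WT liver, so that the groups overlapped. Its difference of 0.38 (SE 0.21, limma adjusted p = 0.483) was 0.16 without obese FXR-WT replicate 1, the highest of the 11 arrays. Apob was 13.98 and 14.09 in lean and 14.38, 14.17 and 14.27 in obese FXR-WT liver, a difference of 0.24 (SE 0.16, adjusted p = 0.565) between groups that did not overlap. Pltp, which moves phospholipid between particles, was 8.86 and 8.43 in lean and 8.46, 8.12 and 8.28 in obese FXR-WT liver. Its difference was -0.36 (SE 0.18, limma adjusted p = 0.42), with values from -0.57 to -0.14 when single arrays were left out. Without lean FXR-WT replicate 1 or 2 the fit rests on a lone lean FXR-WT array, which is assumed to vary like the other groups.

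Apoa1, the main protein of high density lipoprotein, Apoc1, Apoc3 and Apoe were the 4 level transcripts. Their values over the 11 arrays spanned 0.24, 0.21, 0.18 and 0.20 on the log2 scale, and 98.3% to 99.6% of the tested genes had a wider range. As they were grouped here for their narrow ranges, small differences between groups follow from that choice. Over the 3 comparisons their differences ran from -0.08 to 0.07, the 95% intervals lay within -0.31 and 0.30, and the smallest unadjusted p in limma was 0.476. These 4 probes were also among the brightest on the array, at ranks 9 to 87 of 45281 and raw intensities of 27515 to 37656, where the highest signal on an array was 36150 to 43441. The 100 brightest probes had a median range of 0.24 over the arrays, against 0.75 for all tested genes. Compression of the scale was not tested here either, so these intervals apply to intensity.

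Lean FXR-K217Q liver was compared with lean FXR-WT liver to ask what an FXR that resembles the acetylated form does without obesity. The 10 genes lay close to their FXR-WT levels, with differences of -0.19 to 0.25, a median of 0.01 (all genes -0.003) and 5 of 10 positive (49.4% of all genes). In limma 0 of the 10 passed 5% FDR, as did 0% of all genes, and 0 of 10 had an unadjusted p under 0.05 where 7.2% of all genes did. Apoc2 was the 1 gene whose groups did not overlap (22.3% of all genes in either direction), higher on every FXR-K217Q array, as were 10.3% of all genes (12% lay lower on every array), with a difference of 0.25 (SE 0.17, adjusted p = 0.817). Its second probe gave 0.32 (adjusted p = 0.793).

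For Apoa4 the mean difference hid the spread within lean FXR-K217Q, which averaged 11.998 ± 1.07 (SD, n = 3). Replicates 1 and 2 (11.61 and 11.17) lay below both FXR-WT arrays and replicate 3 (13.21) above them. The difference was -0.19 (SE 0.51, limma adjusted p = 0.97) with all arrays and -0.80 (SE 0.34, adjusted p = 0.398) without replicate 3, and it was 0.22 without replicate 2. Vldlr differed by -0.12 (SE 0.39, adjusted p = 0.97), and by 0.12 without replicate 3, with 0.02 and 0.36 on its other probes. The 95% intervals with all arrays were -1.33 to 0.95 for Apoa4 and -0.97 to 0.73 for Vldlr.

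Obese FXR-K217R liver was compared with obese FXR-WT liver to see what blocking acetylation at that lysine changes in obesity. The 10 genes lay close to their FXR-WT levels here too, with differences of -0.43 (Apoc2, 1.35-fold lower) to 0.26 (Vldlr), and the share of the 10 whose groups separated was that of all genes. Apoc2 averaged 11.91 ± 0.17 (SD, n = 3) against 12.34 ± 0.24 (SD, n = 3), a difference of -0.43 (SE 0.15, limma unadjusted p = 0.0158, adjusted p = 0.993), and it lay lower on every FXR-K217R array. In limma 0 of the 10 genes passed 5% FDR against 0.0388% of all genes, and 1 had an unadjusted p under 0.05 against 4.41%. The groups did not overlap for 1 of the 10, against 9.85% of all genes, of which 5.55% lay lower and 4.31% higher on every FXR-K217R array. The second Apoc2 probe gave -0.40 (adjusted p = 0.996), also with no overlap, and without obese FXR-WT replicate 1 the main probe gave -0.30.

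Apoa4 averaged 14.35 ± 0.47 (SD, n = 3) with FXR-K217R and 14.30 ± 0.48 (SD, n = 3) with FXR-WT. The difference of 0.05 had a 95% interval of -0.97 to 1.07 on the intensity scale. Vldlr averaged 7.72 ± 0.63 (SD, n = 3) against 7.45 ± 0.55 (SD, n = 3), a difference of 0.26 (SE 0.34, limma adjusted p = 0.993) that was -0.05 without obese FXR-WT replicate 1. The median of the 10 genes was 0.03 (all genes -0.005), with 7 of 10 positive (48.8% of all genes).

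**Figure D2:**
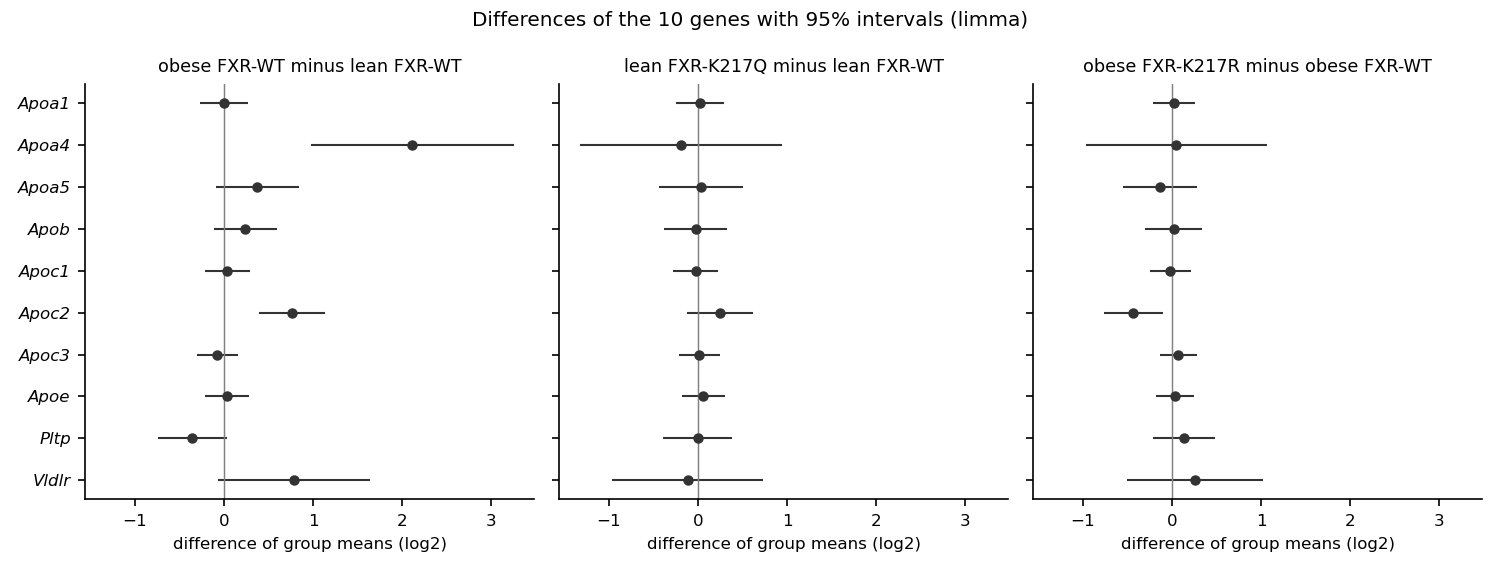
Difference of group means (x axis, log2) with its 95% interval from limma for each of the 10 genes (y axis) in the 3 comparisons. The intervals of Apoa4 (0.98 to 3.25) and Apoc2 (0.39 to 1.14) leave out 0 between obese and lean liver, that of Apoc2 (-0.77 to -0.10) does so for FXR-K217R, and all others hold 0.

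Ordered by group mean, Apoc2 ran from lean FXR-WT (11.58) through lean FXR-K217Q (11.83) and obese FXR-K217R (11.91) to obese FXR-WT (12.34), and the middle groups overlapped. On the second Apoc2 probe the middle groups stood in the other order (9.62 and 9.57). For Apoa4 the order was lean FXR-K217Q (11.998), lean FXR-WT (12.19), obese FXR-WT (14.30) and obese FXR-K217R (14.35), where neighbours on each side of the step between lean and obese overlapped. For Vldlr it was lean FXR-K217Q (6.55), lean FXR-WT (6.67), obese FXR-WT (7.45) and obese FXR-K217R (7.72), again with overlap on each side of that step.

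The 2 arrays with an index of -0.92 and -0.85 also differed from the rest of their groups in several of the 10 genes. In lean FXR-K217Q the array with the index of -0.92 had 13.21 for Apoa4 and 6.09 for Vldlr, against 11.61 and 11.17 for Apoa4 and 6.80 and 6.77 for Vldlr at 1.07 and 1.29. In obese FXR-WT the array at -0.85 had the highest Apoa4 (14.80) and the lowest Vldlr (6.83), and the arrays at 1.30 and 1.55 had 14.27 and 13.83 for Apoa4 and 7.68 and 7.86 for Vldlr. Apoa5 was the highest of its group on both arrays (11.06 and 11.62), and Apob on both as well (14.25 and 14.38). Within these groups Apoa4 was thus higher and Vldlr lower on the array with the low index, while in obese FXR-K217R the array with the lowest index (1.52) had the lowest value of both genes. In lean FXR-WT, Vldlr was 6.74 at -0.49 and 6.60 at -0.27.

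With the index as a covariate, an alternative added after seeing the data, the difference between obese and lean FXR-WT liver was 2.68 for Apoa4 (limma adjusted p = 0.0124), 0.89 for Apoc2 (adjusted p = 0.0358) and 0.35 for Vldlr (adjusted p = 0.645).

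**Figure D3:**
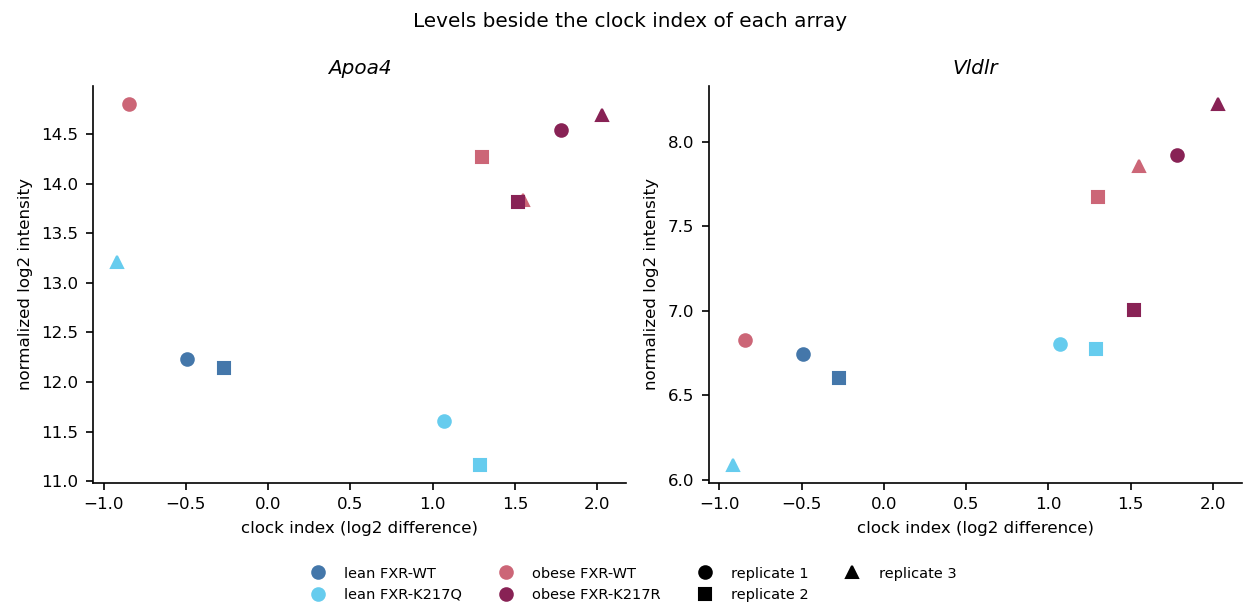
Normalized log2 intensity (y axis) of Apoa4 and of Vldlr on each of the 11 arrays against the clock index of that array (x axis, log2 difference); colours give the group and symbols the replicate. Apoa4 is highest on obese FXR-WT replicate 1, and Vldlr is lowest on lean FXR-K217Q replicate 3.

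The transcripts most like Apoa4 over the 11 arrays by Pearson's r, as a description that rests on the step between lean and obese arrays, were Psmd8 (0.966), Hist1h1c (0.959), Wwc1 (0.945), Gpr64 (0.942) and Acot4 (0.930). Those most like Vldlr were Pigk (0.972), Tnfrsf19 (0.964), Capn6 (0.944), Ltbp3 (0.933) and Luzp1 (0.930).

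Other cells could add to these transcripts in whole liver. Of 7 enterocyte markers, listed because the intestine makes Apoa4, 4 were detected on 0 arrays (Fabp2, Vil1, Cdh17 and Alpi) 2 were not on the array under the listed symbols, and 1, Rbp2, was tested, at 4.96 to 6.05. Of 8 adipocyte markers 5 were detected on 0 arrays (Adipoq, Plin1, Lep, Retn and Fabp4), and the summed intensity of the other 3 was 1563 to 2315 in lean FXR-WT, 1208 to 1823 in lean FXR-K217Q, 1488 to 2906 in obese FXR-WT and 608 to 3340 in obese FXR-K217R liver. Of these 3, Cfd, the protease adipsin, rose by 3.54 in obese FXR-WT against lean FXR-WT liver (limma adjusted p = 0.0193), while Lipe (0.61, adjusted p = 0.288) and Pck1 (-0.41, adjusted p = 0.832) did not pass. On the lean FXR-WT arrays Pck1 read 10.55 and 11.10 and Cfd 5.68 and 6.08, so the linear sum there mostly follows Pck1.

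Kupffer cells and other macrophages make Apoe and Pltp. Of 8 Kupffer markers 7 were tested and Cd5l was detected on 0 arrays. Their summed intensity was 13379 to 14547 in lean FXR-WT, 9822 to 11169 in lean FXR-K217Q, 10924 to 13419 in obese FXR-WT and 8246 to 16736 in obese FXR-K217R liver. Endothelial markers (6 of 7 tested, Kdr detected on 0 arrays), listed for Vldlr, summed to 8440 to 8633, 6620 to 7427, 6252 to 7432 and 6252 to 8036 in the same order. The summed hepatocyte markers (7 of 8 tested) were 124080 to 133750, 115340 to 125270, 99145 to 124440 and 93885 to 101980.

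Neutrophil markers, like Apoc2, were highest in obese FXR-WT liver. All 8 were tested, and their summed intensity was 3814 to 4186 in lean FXR-WT, 2554 to 4331 in lean FXR-K217Q, 10393 to 14067 in obese FXR-WT and 1452 to 2667 in obese FXR-K217R liver. In limma 4 of the 8 rose in obese against lean FXR-WT liver, as 0.685% of all genes did. With FXR-K217R in obese liver 6 of the 8 fell, and they were all the genes called in that comparison (0.0388% of 15469). Monocyte markers (5 of 8 tested) summed to 4336 to 5102, 5316 to 5556, 5632 to 7776 and 5601 to 7963 in the same order of groups. The part of these cell types in the levels of the 10 genes was not tested.

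Of 52 other genes of lipoprotein assembly, lipolysis, uptake and control, 44 were tested. In obese against lean FXR-WT liver 1 of them fell and 0 rose (median -0.09), as 0.511% and 0.685% of all genes did. The gene that fell was Srebf2, the transcription factor of cholesterol synthesis and uptake. It read 8.85 and 8.93 in lean FXR-WT and 7.71, 7.78 and 7.69 in obese FXR-WT liver. It fell by 1.16 (SE 0.23, limma adjusted p = 0.0428), with all 3 obese arrays below both lean ones, and the call was lost in 11 of 24 alternatives (adjusted p up to 0.374). In this comparison 16.2% of all genes lay lower on every obese array. By list, 1 of 10 regulators passed (Srebf2), where 1.2% of all genes did. Of the rest, 0 of 7 receptor and uptake genes, 0 of 9 other apolipoproteins, 0 of 10 assembly genes and 0 of 8 lipases and their regulators passed.

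**Figure D4:**
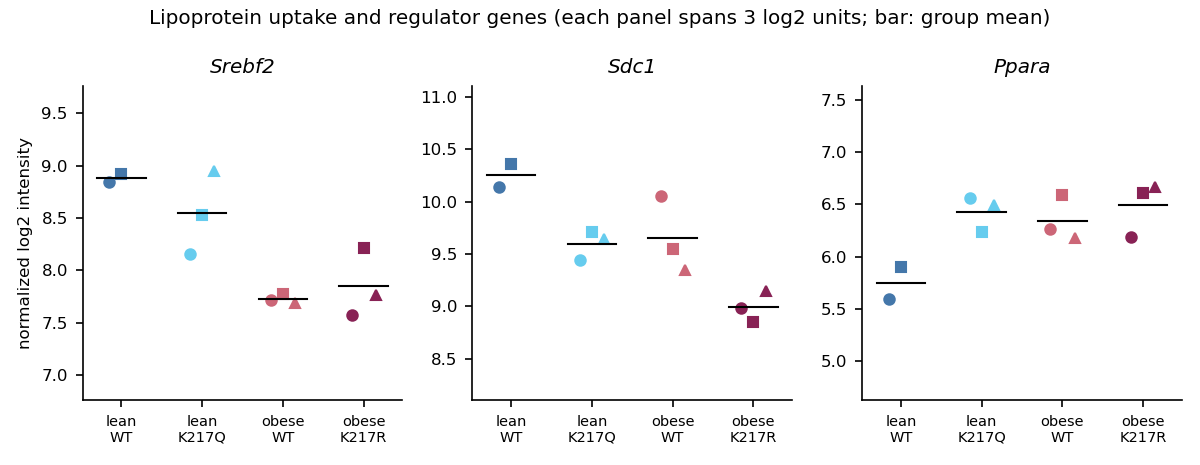
Normalized log2 intensity (y axis) of Srebf2, Sdc1 and Ppara on the 11 arrays by group (x axis); symbols give the replicate (circle 1, square 2, triangle 3) and bars the group mean. Srebf2 lies between 7.69 and 7.78 in obese FXR-WT and at 8.85 and 8.93 in lean FXR-WT liver.

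With FXR-K217Q in lean liver 0 of the 44 passed (median -0.06), and the genes with the smallest unadjusted p were Ppara (0.68), Sdc1 (-0.65), Srebf1 (-1.20) and Creb3l3 (0.32), with limma adjusted p from 0.464 to 0.717. When single arrays were left out, Srebf1 ran from -1.52 to -0.76 and Creb3l3 from 0.19 to 0.43. Srebf1 read 9.05, 9.02 and 7.71 on lean FXR-K217Q replicates 1, 2 and 3. Ppara is the fatty acid sensor that controls several apolipoprotein genes, Sdc1 a heparan sulphate proteoglycan that binds remnants, Srebf1 the transcription factor of fatty acid synthesis, and Creb3l3 a liver factor that activates Apoa4 and Apoc2. Between obese and lean FXR-WT liver the differences were 0.60 (Ppara), -0.60 (Sdc1), -0.32 (Srebf1) and 0.46 (Creb3l3), without passing. The lean FXR-WT arrays are the same in both comparisons. With FXR-K217R in obese liver 0 of the 44 passed (median -0.07), and the smallest p-values in limma were those of Sdc1 (-0.66, adjusted p = 0.96), Nr1h4 itself (0.30), Tm6sf2 (-0.39), which loads lipid onto particles, and Cd36 (0.28), a fatty acid receptor. Nr1h4 lay higher on every FXR-K217R array than on every obese FXR-WT array, as 4.31% of all genes did. Whether its probe reads the viral FXR, the mouse's own or both was not tested. The Cd36 probe was detected on 2 obese FXR-WT and 3 obese FXR-K217R arrays and read 5.08 to 5.73 in obese liver, close to background. Sdc1 was 10.14 and 10.36 in lean FXR-WT, 9.44, 9.71 and 9.64 in lean FXR-K217Q, 10.06, 9.55 and 9.34 in obese FXR-WT and 8.99, 8.85 and 9.15 in obese FXR-K217R liver. It thus lay lower on every array of each mutant than on every FXR-WT array of the same kind of mouse, as 12% of all genes did with FXR-K217Q and 5.55% with FXR-K217R, and it passed in neither comparison. Sdc1 also lay lower on every obese than on every lean FXR-WT array, as 16.2% of all genes did (limma adjusted p = 0.219). Over both constructs, obese less lean liver was -0.60 for Sdc1 (limma adjusted p = 0.0345) and -0.93 for Srebf2 (adjusted p = 0.00932). That comparison was chosen after seeing the data, and 4.14% of all genes passed in it.

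The FXR-K217R difference minus the FXR-K217Q difference was tested as an interaction, and 0 of the 10 genes passed (0% of all genes), with 7 positive (50.8% of all genes). This interaction also contains, with its sign turned, the difference between obese and lean FXR-WT liver. Apoc2 (-0.68) was the 1 gene with an unadjusted p under 0.05, which 4.71% of all genes had. Of the 44 other genes 0 passed, and Srebf1 (1.75), Ppara (-0.54), Nr1h4 (0.39) and Lsr (-0.50), a receptor for lipolysed particles, had the smallest unadjusted p (limma adjusted p = 1 for each). Over the alternatives the value of Srebf1 ran from 0.75 to 2.08.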

How the data were processed

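Liver RNA was measured on 11 Illumina BeadChip arrays. The deposited table gives, per the file headers, mean bead intensity per probe, its standard error, a detection p-value and the number of beads (a count). The authors also deposited normalized log2 values, and limma 3.12.3 is named per the submitters' processing notes, with no function given. Their largest distance from the values below was 0.0271. Here, neqc (limma 3.58.1, R 4.3.3, offset 16) removed background and quantile-normalized the intensities, with negative control behaviour taken from the detection p-values. The brightest probe past the detection filter stood for each gene. A linear model with a mean per group was fitted to all 11 arrays (lmFit, eBayes, two-sided), with Benjamini-Hochberg adjustment over 15469 genes per comparison and a threshold of 5% FDR. SE and intervals come from this fit.

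Named genes are all 10 members, other lipoprotein genes past 5% FDR (or, if none, the 4 with the smallest p), and 5 genes of like pattern for the 2 members with the widest range of group means. Some lipoprotein genes are not reported here. Members and lists were chosen with earlier results of these data known. Symbols are those of the deposited table, except EG624219, which the RefSeq table gives as a synonym of Angptl8. Replicate numbers were not used to pair the samples in the main fit. Of 15 same-numbered pairs, 3 had deviations correlated above 0.1 (range -0.388 to 0.234). With 2 or 3 arrays per group this check cannot exclude a pairing. Summed marker intensities are linear values with the offset taken off, so the brightest marker of a list weighs most. That was Clec4g for endothelial, Lyz2 for monocyte and S100a8 for neutrophil markers. The number of arrays limits the precision.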

Additional observations from a re-analysis of the deposited data

Results flagged for a closer look

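Apoc2 lay higher on every lean FXR-K217Q array than on both lean FXR-WT arrays, and lower on every obese FXR-K217R array than on every obese FXR-WT array. Groups did not overlap for 22.3% and 9.85% of all genes in these comparisons, and neither Apoc2 difference passed (limma adjusted p = 0.817 and 0.993). The difference between these differences was -0.68 (SE 0.23, limma unadjusted p = 0.0123, adjusted p = 1), and it did not pass. The second probe gave -0.71 (adjusted p = 1). The same value is the difference between the mutant groups (means of 11.91 and 11.83) less that between obese and lean FXR-WT liver (0.77). It thus mostly restates that FXR-WT difference and is not a separate result. The mutants are different proteins in different mice, and without both arrays that stand apart the value was -0.51.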

How the results depend on the processing

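Of 807 recomputed values over 34 results and 30 settings, 736 were labelled the same. For the change of a gene this meant the same direction and side of the threshold. For a count of genes called it meant an equal or similar count. Results far from the threshold could hardly change side, so the total says little about those near it. Between obese and lean FXR-WT liver the label changed for Srebf2 in 11 of 24 alternatives, Apoa4 in 6 of 26 and Apoc2 in 6 of 25. The count of genes called there changed label in 10 of 25. Genes past 5% FDR between obese and lean FXR-WT liver numbered 185 and 514 with arrayWeights, 467 without both arrays that stand apart, 641 over both constructs, 110 with only the compared groups and 102 with the replicate block (36 to 283 without single arrays). For FXR-K217R the 6 became 2 with only the compared groups, 2 on probes detected on all 11 arrays and 3 with the replicate block (3 to 10 without single arrays). For FXR-K217Q the 0 became 2 without both arrays and 1 with trend and robust eBayes (0 to 1 without single arrays), and for the interaction 1 with trend and robust eBayes and 1 at an offset of 50. Members past 5% FDR between obese and lean FXR-WT liver numbered 0, then 2 (Apoa4 and Apoc2) with arrayWeights and 2 with the clock index, 1 (Apoa4) without both arrays, over both constructs and with only the compared groups, and 1 (Apoc2) with trend and robust eBayes, at an offset of 50, on probes detected on all arrays and with quantile normalization alone (0 to 1 without single arrays, Apoa4 passing without lean FXR-K217Q replicate 3). The cause of these shifts was not tested.

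Signs turned for Apoa4 with FXR-K217Q (0.28 with the clock index, 0.0204 on a second probe) and with FXR-K217R (-0.0217 on that probe), for Vldlr with FXR-K217Q (0.0179 with arrayWeights, 0.12 without both arrays, 0.0901 over the mean of probes, 0.0228 and 0.36 on other probes) and with FXR-K217R (-0.0507 without both arrays, -0.20 with the clock index). Without single arrays these ran from -0.80 to 0.22 and -0.18 to 0.32 for Apoa4 and from -0.24 to 0.12 and -0.0507 to 0.62 for Vldlr. The replicate block changed the call of no member. In limma 1113, 682, 2093 and 728 genes had an unadjusted p under 0.05 for FXR-K217Q, FXR-K217R, obesity and the interaction. Changes of low probes such as Vldlr are measured close to background.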
